A study of Mus musculus with 10 samples.

Results

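Transcript levels of the genes that carry glucose into the cell, break it down to pyruvate and export the resulting lactate were compared in mouse teratomas that expressed wildtype, R167Q or P81S human VHL. The list had 35 genes, fixed by name, and 32 of them had a probe set (a group of probes read as 1 value) annotated to that gene alone, among 18820 such genes on the array. The other 3, Gpi1, Pfkfb1 and Eno1, were not analysed here. Where a gene had several such probe sets, the one with the highest mean was used. All tumours grew from Vhl-/- embryonic stem cells of the J1 strain (Sv/129), which carried a human VHL cDNA as a transgene, and were injected under the skin of both flanks of female nu/nu mice; tumours were excised at a largest dimension of 1 cm. There were 3 wildtype, 3 R167Q and 4 P81S teratomas, 1 array each. The labels call the P81S tumours apoptosis-resistant and the others apoptotic. The design text says that the P81S arrays are pairs from 2 clones, without saying which arrays belong together, and gives no number of clones for the other genotypes. A clone effect and a genotype effect therefore cannot be told apart, and tumours may have shared a mouse. The p-values below treat each tumour as independent and may be too small where tumours share a clone or a mouse. They set a group difference only against the spread between these tumours, which the labels call biological replicates. With 1 array per tumour, the technical part of this spread cannot be told apart. The promoter that drives the transgene is not given in the sources used here.

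Glycolysis converts glucose to pyruvate through a chain of enzymes, most of which exist as isoforms encoded by separate genes with their own tissue pattern. VHL is the substrate receptor of a ubiquitin ligase that removes hypoxia-inducible factors (HIF) when oxygen is present. Many genes of glucose uptake, glycolysis and lactate export are known HIF targets, among them Slc2a1, Hk2, Pfkfb3, Pgk1, Ldha, Pdk1 and Slc16a3. These are examples, and whether the other members, those that rose included, respond to HIF was not tested. Glycolysis is a hallmark of kidney tumours that have lost VHL. Teratomas mix tissues such as nerve, muscle and gland, which use different isoforms, and in bulk RNA fewer cells of a type and less RNA per cell cannot be told apart.

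Values are the deposited log2 expression values, in which 1 unit is a doubling. Array medians over all probe sets ran from 6.965 to 7.107 log2. Markers of the tissues a teratoma can hold were present at levels that differed between tumours. The hepatocyte and yolk sac gene Alb, for example, read 5.62 log2 in P81S replicates 2 and 4 and 11.02 in wildtype replicate 2. The groups also differed in features other than the labelled transgene. The mean of 3 Y-linked transcripts was 4.26 to 4.70 log2 in the wildtype arrays and 8.42 to 9.52 in the other 7. The host mice were female. The reason for this difference was not tested, and it is not read as a measure of donor cell content. Wildtype arrays had pluripotency marker means of 10.18 to 10.94 log2. Genes of chromosome 11 had a median shift of -0.34 and -0.36 log2 in P81S replicates 1 and 2 and of 0 and -0.01 in replicates 3 and 4. For chromosome 8 the median shift was 0.15 to 0.18 log2 in P81S and -0.12 to 0.08 in the other arrays. For chromosome X it was 0.05 to 0.18 in P81S and -0.06 to 0.06 in the others. Mouse Vhl read 8.49 to 8.90 log2 in P81S and 6.83 to 7.21 in the other arrays. No source used here says whether its probes lie in the disrupted part, so this is no check of the labels.

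In P81S against wildtype, 8 of the 32 measured glycolysis genes rose and 3 fell, and 21 did not pass (limma, Benjamini-Hochberg adjusted p under 0.05 over all genes; 17.2% of all genes rose and 17.5% fell). The rises were in Eno2 (4.47-fold), Pfkfb3 (2.15-fold), Hk1 (2.06-fold), Pklr (1.88-fold), Aldoc (1.84-fold), Pfkm (1.68-fold), Pdk2 (1.66-fold) and Tpi1 (1.26-fold). The falls were in Pdk1 (1.31-fold), Pdk3 (1.28-fold) and Pkm (1.22-fold). Against R167Q, Hk1, Pfkm and Eno2 were higher in P81S and Slc2a1, Hk2, Pdk1 and Slc16a3 lower (12.4% of all genes higher and 10.1% lower). In R167Q against wildtype, 0 of 32 passed by limma, against 0.0638% of all genes higher and 0.0266% lower. At most steps with several isoforms the calls were in some isoforms and not in others, as the plot of all differences shows. The share called was near that of all genes: 34.7% of all genes were called in P81S against wildtype, 22.5% in P81S against R167Q and 0.0903% in R167Q against wildtype. In the members these shares were 34.4%, 21.9% and 0%. The arrays of P81S and wildtype lay apart, with no shared range, for 14 members (40.6% of all genes), and those of P81S and R167Q for 13 (30.7% of all genes). The median difference of the members was 0.12 log2 in P81S against wildtype (0.01 over all genes), 0.17 in R167Q against wildtype (-0.02) and -0.02 in P81S against R167Q (0.02). The counts depended on single arrays: without P81S replicate 3 or wildtype replicate 3, 5 and 7 members were called in P81S against wildtype. The share of all genes called was not counted in these or the other alternatives. Eno2, Hk1, Pfkfb3, Pfkm and Pdk1 stayed called in all 26 alternative settings and array omissions of that comparison.

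**Figure D1:**
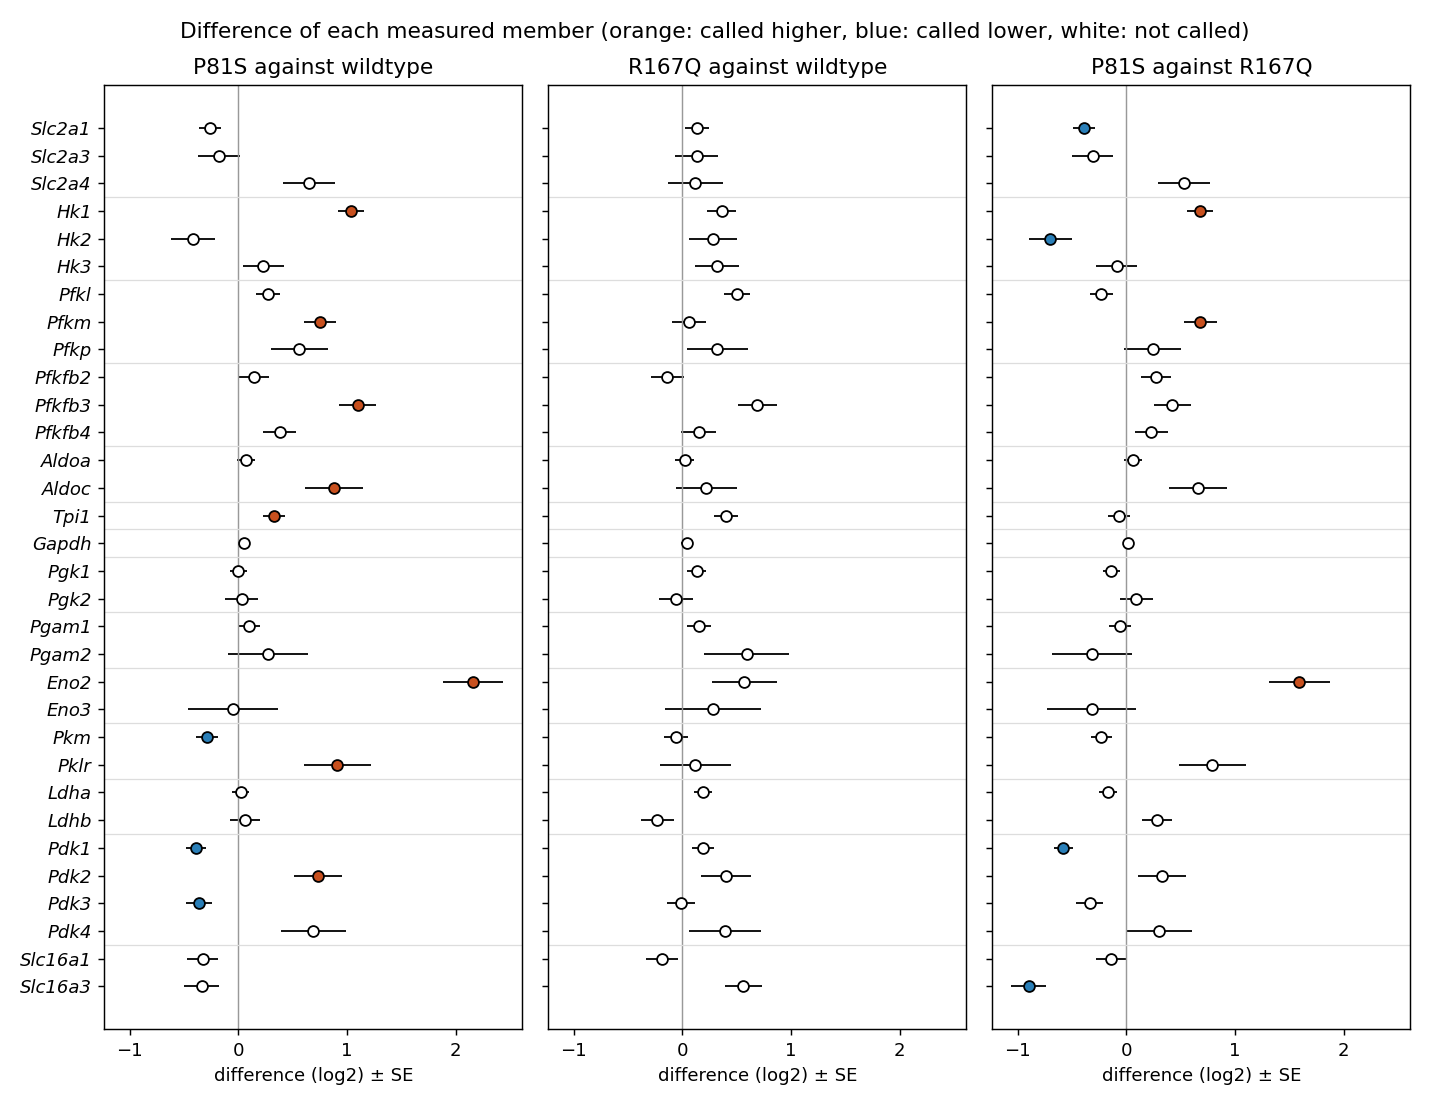
Difference in log2 expression with its standard error for each of the 32 measured genes, in the order of the pathway, for the 3 comparisons. Filled points passed an adjusted p under 0.05 (orange higher, blue lower). P81S differs from wildtype in 11 genes, with Eno2 farthest from 0 at 2.16 log2, while no point is filled in the middle panel.

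The promoters of the genes with the largest called difference in each of the 5 steps that differed most, and of Ldha, are shown because HIF binds the letters ACGTG or GCGTG in regulatory DNA. Ldha was added after its values were seen, as a known HIF target that did not pass in any comparison. Each run is the 250 bases before a transcript start, 5′ to 3′ on the gene's strand, from RefSeq on GRCm38.p6. Where RefSeq lists 2 starts (Pfkfb3, Hk1, Pklr and Ldha), the one with more matches is shown, or for Pklr, where neither window has a match, the one of lower coordinate. Capitals mark ACGTG and GCGTG on either strand (CACGT and CACGC where the match is on the opposite one); the palindrome CACGTG holds an overlapping match on each strand.
Eno2: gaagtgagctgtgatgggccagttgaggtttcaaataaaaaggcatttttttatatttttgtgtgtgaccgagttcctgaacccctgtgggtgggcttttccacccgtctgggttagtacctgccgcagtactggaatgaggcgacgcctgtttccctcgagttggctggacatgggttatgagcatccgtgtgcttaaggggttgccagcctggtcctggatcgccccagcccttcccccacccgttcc
Pfkfb3: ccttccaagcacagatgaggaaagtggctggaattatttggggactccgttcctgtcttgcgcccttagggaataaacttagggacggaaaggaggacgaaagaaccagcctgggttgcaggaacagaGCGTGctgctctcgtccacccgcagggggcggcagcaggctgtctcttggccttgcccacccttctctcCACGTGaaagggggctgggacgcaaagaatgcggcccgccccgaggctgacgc
Hk1: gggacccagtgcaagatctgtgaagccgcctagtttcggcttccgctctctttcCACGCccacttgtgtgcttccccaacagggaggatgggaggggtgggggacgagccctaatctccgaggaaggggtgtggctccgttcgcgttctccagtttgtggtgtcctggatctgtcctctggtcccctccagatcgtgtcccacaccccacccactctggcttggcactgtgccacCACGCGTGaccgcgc
Pklr: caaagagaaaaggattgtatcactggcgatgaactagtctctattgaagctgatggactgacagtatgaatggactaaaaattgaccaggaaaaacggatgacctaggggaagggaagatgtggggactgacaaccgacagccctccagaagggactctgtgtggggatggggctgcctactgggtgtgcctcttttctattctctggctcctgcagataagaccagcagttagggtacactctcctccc
Slc16a3: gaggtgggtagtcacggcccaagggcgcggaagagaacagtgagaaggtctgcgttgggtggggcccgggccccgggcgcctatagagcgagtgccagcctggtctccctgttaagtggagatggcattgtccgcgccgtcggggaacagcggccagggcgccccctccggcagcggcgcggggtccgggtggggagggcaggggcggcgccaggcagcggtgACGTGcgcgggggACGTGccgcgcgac
Ldha: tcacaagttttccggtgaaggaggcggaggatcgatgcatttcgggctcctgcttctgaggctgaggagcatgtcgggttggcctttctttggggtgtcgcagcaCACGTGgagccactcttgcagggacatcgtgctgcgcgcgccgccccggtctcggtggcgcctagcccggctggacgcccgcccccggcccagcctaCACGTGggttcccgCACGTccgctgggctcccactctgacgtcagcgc
They lie at chr6:124769674-124769923 (minus strand), chr2:11502091-11502340 (minus), chr10:62340422-62340671 (minus), chr3:89135892-89136141 (plus), chr11:120948817-120949066 (plus) and chr7:46845554-46845803 (plus). Eno2, the gene with the largest difference, and Pklr had 0 matches in these windows. Hk1 had 3 GCGTG matches, Pfkfb3 had 1 GCGTG and 2 ACGTG matches in a palindrome, and Slc16a3 had 2 ACGTG matches 27 and 14 bases before the start. Ldha had 5 ACGTG matches, in 2 palindromes and a single site. Of the 32 measured members 30 had a promoter in the table, and 15 of these (50%) held ACGTG in at least 1 listed window against 18.5% of all 27025 genes there. For GCGTG the shares were 60% and 30.9%. The comparison genes were all those with a listed promoter, measured on the array or not. Counted by window, ACGTG was in 42.2% of 45 member windows and 16.6% of all 32851, and GCGTG in 46.7% and 28.2%. These are letter matches, not binding sites, and a window without them says nothing about HIF.

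Glucose enters through Slc2a1, the widely expressed transporter, Slc2a3, the high-affinity transporter of neurons, and Slc2a4, the insulin-responsive transporter of muscle and fat. Slc2a1 was 12.63, 12.26, 12.25 and 12.41 log2 in P81S (here and below in replicate order), 12.72, 12.48 and 12.74 in wildtype and 12.87, 12.76 and 12.72 in R167Q. Every P81S array lay below every R167Q array, while P81S overlapped wildtype. The difference from R167Q was -0.39 ± 0.10 log2 (SE; 1.31-fold lower, limma adjusted p = 0.0186) and from wildtype -0.26 ± 0.10 (adjusted p = 0.075). The first call was lost without P81S replicate 3 (adjusted p = 0.0518) or R167Q replicate 1 (0.0885). Slc2a3 ranged from 10.95 to 11.87 log2 with no call. Slc2a4 ran from 6.54 to 7.21 in P81S, above the wildtype range of 5.84 to 6.52, without passing (limma adjusted p = 0.053).

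Hexokinases trap glucose as glucose-6-phosphate. Hk1, the housekeeping and brain form, was the member with the smallest p in P81S against wildtype. It read 11.05, 10.95, 11 and 11.11 log2 in P81S, 10.12, 9.74 and 10.10 in wildtype and 10.14, 10.47 and 10.43 in R167Q. The P81S arrays lay above all the others, and their spread was small (11.03 ± 0.07, SD, n = 4). The difference was 1.04 ± 0.12 log2 from wildtype (limma adjusted p = 0.000105) and 0.68 ± 0.12 from R167Q (1.61-fold, adjusted p = 0.00252). Hk2, the inducible form of growing and hypoxic cells, went the other way: 8.29, 8.43, 8.45 and 8.25 log2 in P81S, 8.59, 8.45 and 9.29 in wildtype and 9.16, 8.72 and 9.29 in R167Q. P81S was lower than R167Q with no overlap (-0.70 ± 0.20 log2, 1.62-fold, limma adjusted p = 0.0306), while wildtype overlapped both and the difference of P81S from it did not pass (-0.42 ± 0.20, adjusted p = 0.143). The Hk2 call was lost without P81S replicate 3 or 4 or R167Q replicate 1 or 3 (adjusted p of 0.0532, 0.0664, 0.114 and 0.125). Hk3, the form of white blood cells, was 5.92, 5.63, 5.39 and 5.81 log2 in P81S, 5.35, 5.67 and 5.36 in wildtype and 5.39, 6.05 and 5.88 in R167Q, ranges that overlapped with no call.

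Phosphofructokinase commits the sugar to glycolysis, and its subunits come from Pfkm (muscle and brain), Pfkl (liver) and Pfkp (platelet and brain). Pfkm was 10.31, 10.53, 10.61 and 10.85 log2 in P81S, 9.94, 9.72 and 9.81 in wildtype and 9.92, 10.17 and 9.58 in R167Q. All P81S arrays were higher than all others, by 0.75 ± 0.15 log2 against wildtype (limma adjusted p = 0.00325) and 0.68 ± 0.15 against R167Q (adjusted p = 0.00926; 0.076 without P81S replicates 3 and 4). Pfkl was 10.91, 10.78, 10.7 and 10.85 log2 in P81S, 10.56, 10.27 and 10.79 in wildtype and 11.04 in each R167Q array, so that R167Q was the high group. Pfkp was 10.08, 10.6, 10.96 and 11.21 in P81S, 9.9, 9.97 and 10.59 in wildtype and 10.25, 10.4 and 10.77 in R167Q. The Pfkp ranges overlapped, and neither gene gave a call.

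PFKFB enzymes make and remove fructose-2,6-bisphosphate, the strongest activator of phosphofructokinase, and Pfkfb3 encodes the form with the highest kinase activity. Pfkfb3 read 9.34, 9.75, 9.95 and 9.97 log2 in P81S, 8.70, 8.46 and 8.79 in wildtype and 9.12, 9.50 and 9.39 in R167Q. Wildtype was the low group here: both mutants lay wholly above it, and they overlapped each other. The difference was 1.10 ± 0.17 log2 for P81S (limma adjusted p = 0.000534) and 0.69 for R167Q (adjusted p = 0.300; 95% interval 0.29 to 1.08 before adjustment), and P81S against R167Q gave 0.42 ± 0.17 (adjusted p = 0.103). Pfkfb4, the testis and hypoxia form, was 7.58, 7.76, 7.67 and 7.7 log2 in P81S, 7.4, 7.4 and 7.08 in wildtype and 7.4, 7.72 and 7.22 in R167Q. P81S lay above wildtype without passing (limma adjusted p = 0.0765). Pfkfb2, the heart form, was 8.33, 8.6, 8.75 and 8.85 in P81S, 8.45, 8.48 and 8.56 in wildtype and 8.36, 8.46 and 8.25 in R167Q, with overlap and no call.

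**Figure D2:**
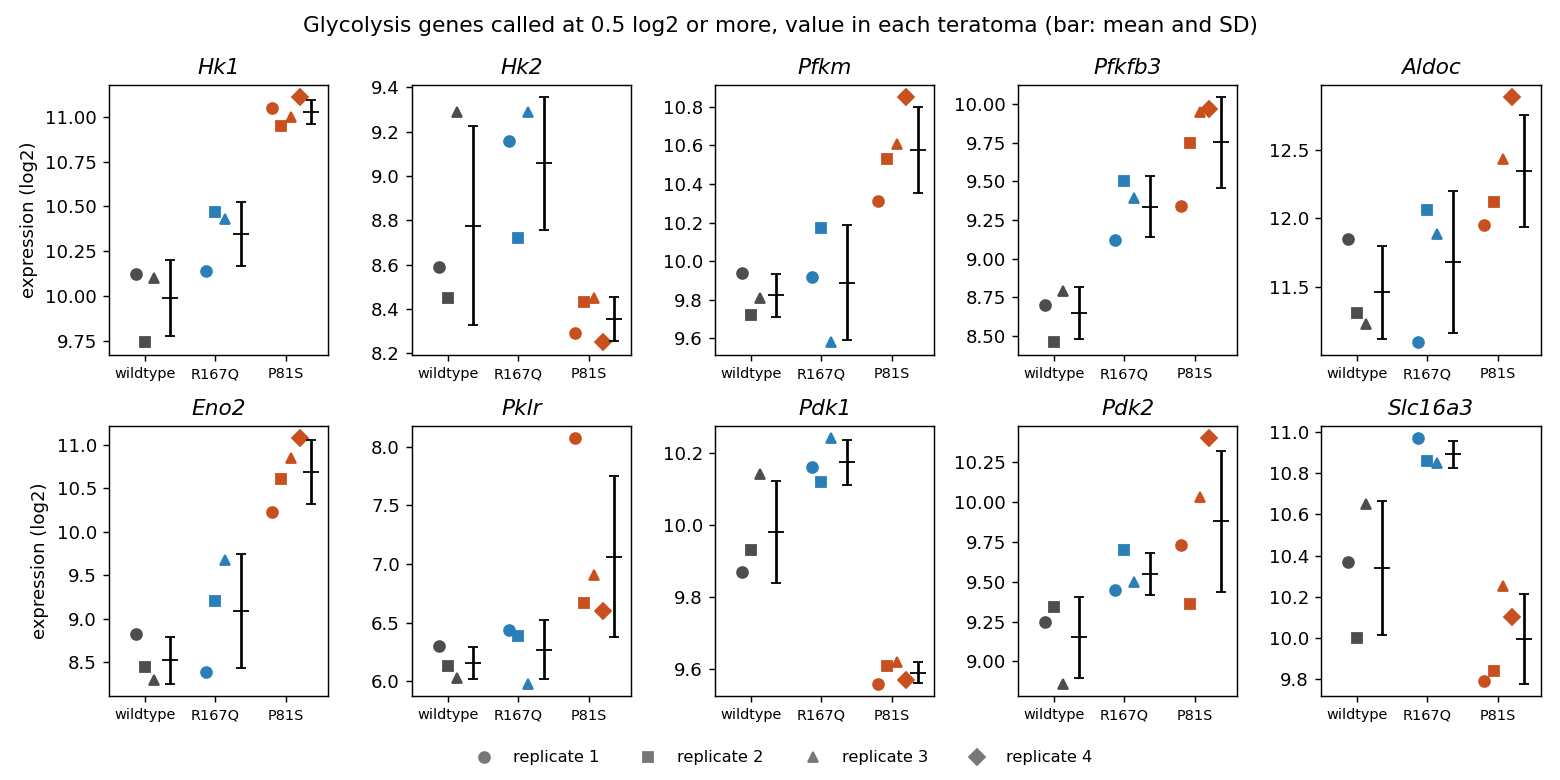
Log2 expression in each of the 10 teratomas for the 10 genes called at a difference of at least 0.5 log2 in any comparison, with the mean and SD of each genotype beside the points and a separate vertical axis per gene. In Hk1, Pfkm and Eno2 all 4 P81S tumours lie above the other 6, in Pdk1 and Hk2 they lie at or below the lowest of the others, and in Slc16a3 the R167Q tumours form the high group.

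Aldolase splits the sugar into triose phosphates. Aldoc, the aldolase of brain astrocytes and Purkinje cells, was 11.95, 12.12, 12.43 and 12.88 log2 in P81S, 11.85, 11.31 and 11.23 in wildtype and 11.10, 12.06 and 11.89 in R167Q. P81S lay above wildtype by 0.88 ± 0.27 log2 (limma adjusted p = 0.0244) but overlapped R167Q. The call was lost without P81S replicate 3 or 4 (adjusted p = 0.055 and 0.0561) or wildtype replicate 2 or 3 (0.0874 and 0.101). Aldoa, the form of muscle and most tissues, was 12.94, 12.73, 12.89 and 12.95 log2 in P81S, 12.83, 12.64 and 12.94 in wildtype and 12.81, 12.83 and 12.83 in R167Q, with overlap and no call. Tpi1, triosephosphate isomerase, ran from 11.73 to 12.12 log2 in wildtype, below the P81S range (12.16 to 12.38) and the R167Q range (12.21 to 12.47). Its rise in P81S of 0.33 ± 0.10 log2 (limma adjusted p = 0.0261) was matched in size by an uncalled 0.40 in R167Q, and the call was lost without P81S replicate 3 or 4 or wildtype replicate 2 (adjusted p = 0.058, 0.0627 and 0.121) and with quantile normalization (0.0739). A dimmer second probe set of Tpi1 was 0.37 log2 higher in P81S than in wildtype without passing (limma over all probe sets, adjusted p = 0.0676).

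The next steps of the chain gave no call. Gapdh, often used as a reference gene, had group means of 13.91 to 13.96 log2. It has 17 probe sets of its own and 24 more that also name predicted genes, so signal from near-identical copies cannot be separated. Pgk1 had P81S and wildtype means of 12.27 and an R167Q mean of 12.40, and Pgam1 means of 12.25 to 12.41. For Pgk1, Pgam1 and Gapdh, a pair of probe sets held identical values in all arrays. Pgk2, the sperm form, stayed between 4.6 and 5.08 log2.

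Enolase makes phosphoenolpyruvate, and Eno2 encodes the neuronal form, a standard marker of neurons and neuroendocrine cells. Eno2 had the largest difference of all members: 10.22, 10.61, 10.84 and 11.07 log2 in P81S, 8.82, 8.45 and 8.30 in wildtype and 8.39, 9.20 and 9.68 in R167Q. Its lowest P81S value was above its highest value elsewhere. P81S exceeded wildtype by 2.16 ± 0.28 log2 (limma adjusted p = 0.000236) and R167Q by 1.59 ± 0.28 (3.01-fold, adjusted p = 0.00305). R167Q replicates 2 and 3 were above all wildtype arrays and replicate 1 was not (0.57 ± 0.30 log2, limma adjusted p = 0.584). Eno3, the muscle form, varied within genotypes: 8.45, 8.57, 10.10 and 9.76 log2 in P81S, 9.43, 9.31 and 9.05 in wildtype and 10.25, 9.41 and 8.98 in R167Q. The same 3 arrays, P81S replicates 3 and 4 and R167Q replicate 1, were high for 12 skeletal muscle markers, with means of 8.79, 8.19 and 8.90 log2 against 6.51 to 7.68 elsewhere. Pgam2, the muscle mutase, was also highest in R167Q replicate 1 (8.01) and P81S replicate 3 (7.99). The part of muscle content in these values was not tested.

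Pyruvate kinase ends the chain. Pkm, the gene of most tissues and tumours, was 11.96, 12.01, 11.97 and 11.84 log2 in P81S, 12.14, 12.06 and 12.51 in wildtype and 12.19, 12.14 and 12.21 in R167Q. Its fall of 0.29 ± 0.10 on the log2 scale against wildtype (limma adjusted p = 0.0427) was the call lost most often, in 14 of 26 alternatives. It was lost without any one array except P81S replicate 2 and wildtype replicate 2, and without wildtype replicate 3 the difference was -0.16 (adjusted p = 0.161). A dimmer second probe set of Pkm gave larger differences, of -0.46 log2 against wildtype and -0.44 against R167Q (limma over all probe sets, adjusted p = 0.00803 and 0.0161), where the brighter one, at -0.23 against R167Q, did not pass. Pklr, the liver and red cell gene, read 8.07, 6.67, 6.91 and 6.60 log2 in P81S, 6.30, 6.13 and 6.03 in wildtype and 6.44, 6.39 and 5.98 in R167Q. P81S replicate 1 stood well above the rest; without it the difference was 0.57 rather than 0.91 ± 0.31 log2 (limma adjusted p = 0.0437 with it). The call was lost without any one of the wildtype or R167Q arrays or P81S replicate 3 (adjusted p of up to 0.129). In P81S replicate 1 the mean of 9 yolk sac and liver markers was 8.53 log2, and P81S replicates 2 to 4 had 6.52 to 7.38. Wildtype arrays, where Pklr was low, had 7.54 to 8.66. The mean of 3 red cell (erythroid) markers was 7.58 log2 in P81S replicate 1 and 6.82 to 9.18 in P81S replicates 2 to 4. It was 6.12 to 6.37 in wildtype and 7.03 to 9.06 in R167Q. The part of liver or red cells in the Pklr values was not tested.

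Lactate dehydrogenase turns pyruvate into lactate and back. Ldha, the subunit typical of muscle and hypoxic cells, had means of 13.31 ± 0.09 log2 in P81S (SD, n = 4), 13.29 ± 0.12 in wildtype (SD, n = 3) and 13.48 ± 0.11 in R167Q (SD, n = 3), and Ldhb, the heart-type subunit, 10.05, 10 and 9.77. Neither gene passed in any comparison.

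Pyruvate dehydrogenase kinases shut pyruvate out of the mitochondrial oxidation route by phosphorylating pyruvate dehydrogenase. The isoforms moved in opposite directions in P81S. Pdk1, the form best known as a HIF target, was 9.56, 9.61, 9.62 and 9.57 log2 in P81S, 9.87, 9.93 and 10.14 in wildtype and 10.16, 10.12 and 10.24 in R167Q. The 4 P81S values were tightly grouped (9.59 ± 0.03, SD, n = 4) and below all the others, by 0.39 ± 0.09 log2 against wildtype (limma adjusted p = 0.00707) and 0.58 ± 0.09 against R167Q (1.5-fold, adjusted p = 0.00173). Pdk3 was 9.54, 9.45, 9.38 and 9.12 in P81S, 9.79, 9.56 and 9.83 in wildtype and 9.71, 9.84 and 9.60 in R167Q. It also fell against wildtype, by 0.36 ± 0.12 log2 (limma adjusted p = 0.0449), a call lost in 12 of 26 alternatives, among them the omission of any one R167Q array, of P81S replicate 2, 3 or 4 and of wildtype replicate 1 or 3 (adjusted p of up to 0.149).

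Pdk2, the most widely expressed isoform, was 9.73, 9.36, 10.03 and 10.40 log2 in P81S, 9.25, 9.34 and 8.86 in wildtype and 9.45, 9.70 and 9.50 in R167Q. P81S replicate 2 lay only just above the highest wildtype array. The rise of 0.73 ± 0.22 log2 against wildtype (limma adjusted p = 0.0223) was lost without P81S replicate 3 (adjusted p = 0.0572) or wildtype replicate 3 (0.103). Pdk4, the fasting-induced isoform, was 8.64, 7.59, 8.42 and 9 log2 in P81S, 7.6, 7.69 and 7.9 in wildtype and 8.53, 8.18 and 7.64 in R167Q. P81S replicate 2 was the lowest of all arrays, and there was no call.

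Lactate leaves the cell through Slc16a3, the low-affinity exporter of glycolytic cells, and Slc16a1, which can carry lactate both ways. Slc16a3 was 9.79, 9.84, 10.25 and 10.10 log2 in P81S, 10.37, 10 and 10.65 in wildtype and 10.97, 10.86 and 10.85 in R167Q. R167Q lay above every other array, with a spread of 0.06 log2 (SD, n = 3), and P81S overlapped wildtype. P81S was 0.90 ± 0.16 lower than R167Q on the log2 scale (1.87-fold, limma adjusted p = 0.00265), a call kept in all 26 alternatives. Its difference from wildtype was -0.34 ± 0.16 (adjusted p = 0.117), and that of R167Q from wildtype 0.56 ± 0.17 (adjusted p = 0.359). Slc16a1 was 10.51, 10.11, 10.02 and 10.54 log2 in P81S, 10.57, 10.5 and 10.8 in wildtype and 10.34, 10.51 and 10.45 in R167Q, with overlap and no call.

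R167Q against wildtype gave 0 calls among the members by limma and under each of 24 alternatives, and 17 calls among all genes. Unadjusted p was under 0.05 for 6 members, all higher in R167Q (18.8%, against 3.93% of all genes higher and 9.73% in either direction): Hk1, Pfkl, Pfkfb3, Tpi1, Ldha and Slc16a3. For 7 members every R167Q array was above every wildtype array, and for none below. This is 21.9% of the members, against 6.93% of all genes above and 19.3% apart in either direction. The intervals, which are before adjustment, leave room for sizeable changes. The 95% interval of Pfkl was 0.23 to 0.77 log2, that of Slc16a3 0.19 to 0.92 and that of Eno2 -0.10 to 1.24. None of these differences passed (limma adjusted p = 0.283, 0.359 and 0.584). Group sizes of 3 limit this comparison, and the absence of calls does not show that R167Q and wildtype tumours were alike. P81S and R167Q were each set against the same 3 wildtype arrays, so their differences from wildtype are not independent of each other.

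To compare isoforms of a step within an array, the log2 value of an isoform was subtracted from that of its partner for 11 pairs, leaving out the 2 planned pairs with Eno1. The level of this difference depends on the probes, so only its change between groups is read. Hk1 minus Hk2 separated P81S from all other arrays: 2.77, 2.52, 2.55 and 2.86 log2 in P81S, 1.54, 1.30 and 0.81 in wildtype and 0.98, 1.75 and 1.14 in R167Q. It shifted towards Hk1 by 1.46 log2 against wildtype and 1.38 against R167Q, each with an exact two-sided permutation p of 0.0286, the smallest that 4 against 3 arrays can give. Pdk2 minus Pdk1 shifted by 1.12 against wildtype and 0.91 against R167Q, with no overlap (exact permutation p = 0.0571 each). Pfkm minus Pfkl was 0.92 higher in P81S than in R167Q and Ldhb minus Ldha 0.45 higher (exact permutation p = 0.0286 each), and Slc16a3 minus Slc16a1 was 0.76 lower on the log2 scale (p = 0.0571). Over the 33 tests the smallest Benjamini-Hochberg adjusted value of these exact permutation p-values was 0.236. This adjustment could hardly be passed: 19 of the 22 tests with 4 against 3 arrays would have had to reach their smallest p, and 4 did. The absence of adjusted calls therefore says nothing about these shifts.

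**Figure D3:**
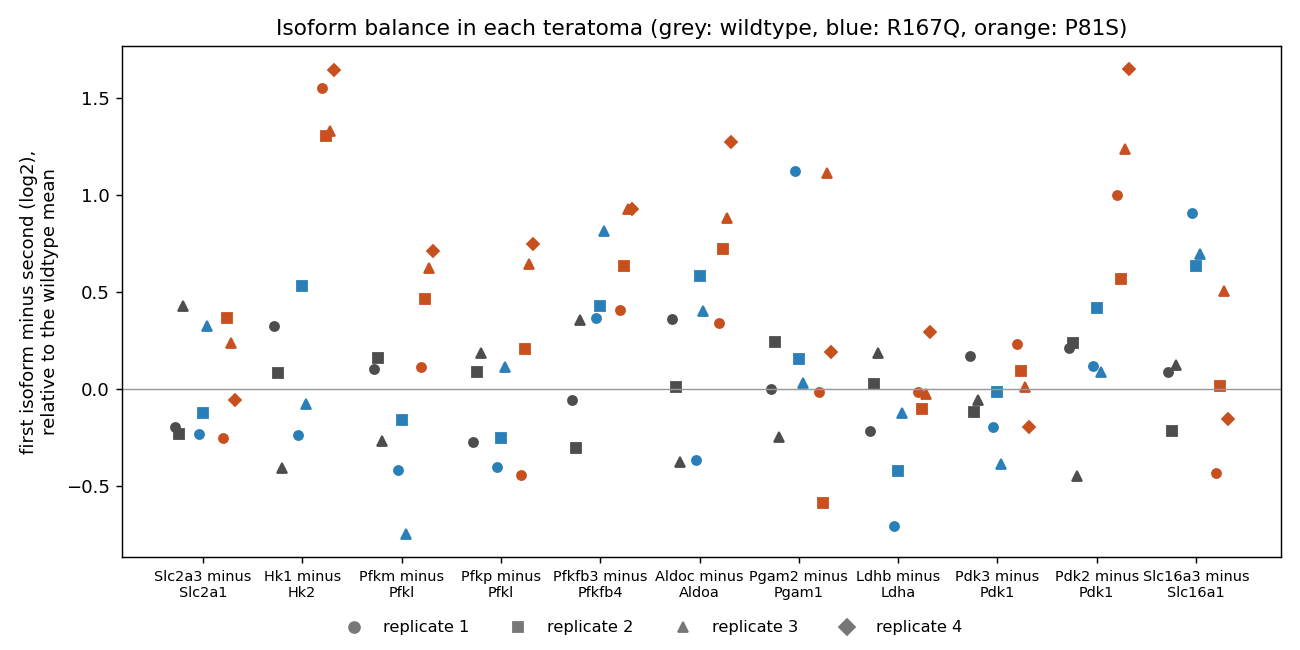
Log2 value of the first isoform minus that of the second in each teratoma, set to 0 at the wildtype mean, for 11 isoform pairs. The P81S tumours lie 1.3 log2 or more above the wildtype mean for Hk1 minus Hk2, and the R167Q tumours lie above all wildtype tumours for Slc16a3 minus Slc16a1.

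Of the measured members, 6 lie on chromosome 11: Slc2a4, Aldoc, Pgam2, Eno3, Pdk2 and Slc16a3. In Aldoc, Pgam2, Eno3, Pdk2 and Slc16a3 both P81S replicates 1 and 2, the arrays with the chromosome-wide shift, lay below replicates 3 and 4. With the shift of each chromosome subtracted, Slc16a3 became 10.13, 10.2, 10.24 and 10.11 log2 in P81S, and Pdk2 10.08, 9.71, 10.03 and 10.41. Eno3 still differed, at 8.80 and 8.92 against 10.10 and 9.77. Slc2a4 became 7.05, 6.9, 7.21 and 6.72 in P81S, against 6.52, 6.05 and 5.86 in wildtype. After this subtraction 12 members rather than 11 were called in P81S against wildtype (limma, 9 higher and 3 lower). In P81S against R167Q 11 rather than 7 were called (6 higher and 5 lower). Some differences not called as deposited therefore passed here. How many of all genes were called after this subtraction was not counted, so the change is not read as particular to the members. Slc16a3 was lower than in R167Q by 0.72 on the log2 scale (limma adjusted p = 0.00332). Aldoc was then 1.06 higher and Pdk2 0.90 higher than in wildtype (adjusted p = 0.00474 and 0.00155).

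**Figure D4:**
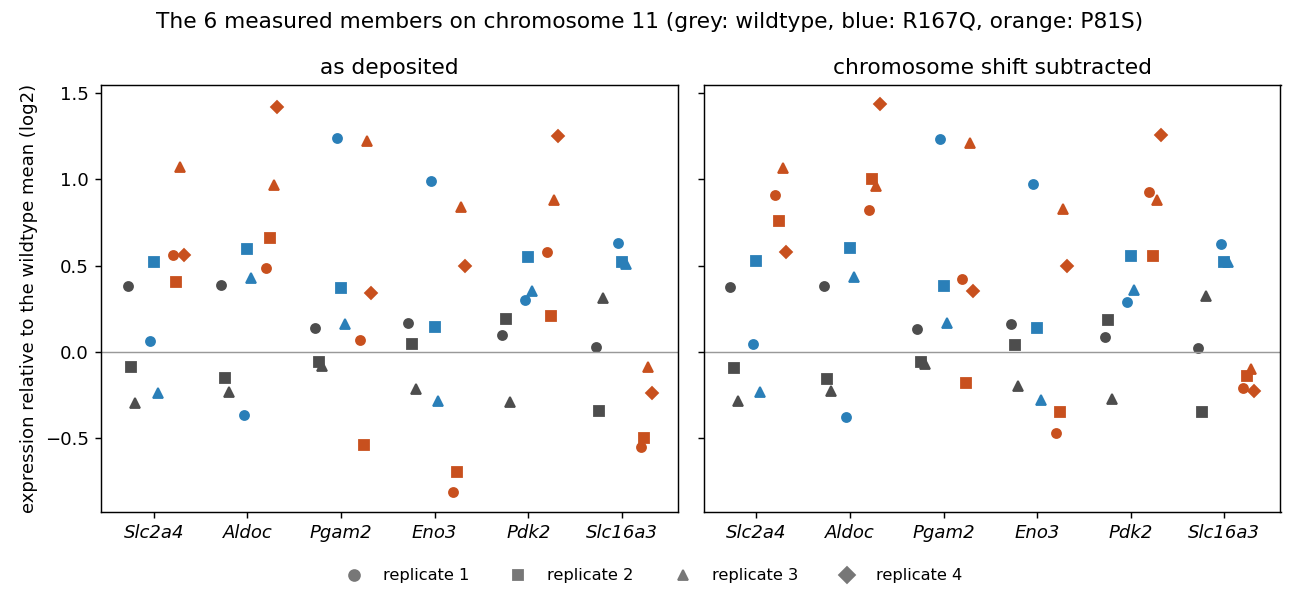
Log2 expression relative to the wildtype mean in each teratoma for the 6 measured members on chromosome 11, as deposited (left) and with the median shift of the chromosome subtracted (right). Circles and squares in orange, P81S replicates 1 and 2, move up by 0.34 and 0.36 log2 in the right panel.

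Other genes of glucose and pyruvate handling gave a share of calls near the background in P81S against wildtype, and below it in P81S against R167Q. Of 42 measured, 9 rose and 6 fell in P81S against wildtype (35.7% called, against 34.7% of all genes; median 0.09 log2). Without any one of the wildtype arrays 9 were called rather than 15. Adpgk, an ADP-dependent glucokinase, fell 1.96-fold (limma adjusted p = 0.000492). Pdp1, the phosphatase that reverses the action of the PDK enzymes, rose 1.46-fold (adjusted p = 0.00126), the glycogen branching enzyme gene Gbe1 1.66-fold (0.00226) and the brain glycogen phosphorylase gene Pygb 1.5-fold (0.00356). Against R167Q, 3 rose and 2 fell in P81S (11.9% against 22.5%). Pdp1 was 1.54-fold higher there and Gbe1 1.37-fold, Adpgk 1.63-fold lower and the liver glycogen phosphorylase gene Pygl 1.69-fold lower. Without P81S replicate 3 or 4, wildtype replicate 2 or 3 or R167Q replicate 1, 3 of these genes were called rather than 5. In R167Q against wildtype 0 of 42 passed in limma, and 3 had an unadjusted p under 0.05, all higher (7.14%, against 3.93% of all genes higher).

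HIF subunits, their hydroxylases and HIF targets outside glycolysis were counted beside the members. Of 21 measured, 11 rose and 2 fell in P81S against wildtype (61.9% called, against 34.7% of all genes; median 0.36 log2, against 0.01). Vegfa, the vessel growth factor, was 10.59, 11.15, 11.33 and 11.54 log2 in P81S, 9.73, 9.33 and 9.91 in wildtype and 10.42, 10.89 and 10.85 in R167Q, so that wildtype was the low group, as in Pfkfb3. Rises of 1.92-fold in Egln1, a HIF prolyl hydroxylase, 1.81-fold in the HIF partner Arnt2 and 1.91-fold in Vldlr, which encodes a lipoprotein receptor, were also called in P81S (limma adjusted p = 0.000295, 0.00048 and 0.000481). In R167Q 0 of 21 passed, 8 had an unadjusted p under 0.05, all higher (38.1%, against 3.93% of all genes higher), and 18 of 21 differences were above 0 (85.7%, against 46% of all genes; limma). P81S against R167Q called 3 genes (14.3%, against 22.5% of all genes): Arnt2 1.74-fold higher, and the inhibitor gene Hif1an and the HIF partner gene Arnt 1.24-fold and 1.34-fold lower (limma adjusted p = 0.00186, 0.0449 and 0.0454). Hif1a itself ranged from 10.91 to 11.33 log2 with no call. Epas1, which encodes another HIF subunit, was called 2.31-fold higher in P81S than in wildtype (limma adjusted p = 0.0497), with overlapping arrays.

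Markers of other tissues moved with the same contrast. Over all genes 17.2% rose and 17.5% fell in P81S against wildtype, and 12.4% and 10.1% against R167Q, beside which the counts below stand. Of 11 measured neural markers, 9 rose and 0 fell in P81S against wildtype and 8 rose against R167Q, with list means from 11.07 to 11.48 log2 in P81S, from 10.23 to 10.63 in wildtype and from 10.47 to 10.9 in R167Q. Snap25, a synaptic vesicle fusion gene, was 12.17 to 12.73 log2 in P81S and 10.84 to 11.47 in wildtype. Of 6 glia markers 3 rose against wildtype, and of 9 yolk sac and liver markers 2 fell. All 12 pluripotency markers and 10 of 11 cell cycle markers fell, with pluripotency means of 6.54 to 8.09 log2 in P81S against 10.18 to 10.94 in wildtype and 9.33 to 10.31 in R167Q. Of 3 erythroid markers 2 rose against wildtype, and the list had means of 6.12 to 6.37 log2 in wildtype, while P81S arrays had 6.82 to 9.18 and R167Q arrays 7.03 to 9.06. Skeletal muscle (12 genes), myeloid (11) and male germ (7) markers gave 0, 0 and 1 calls in P81S against wildtype (limma), with an unadjusted p under 0.05 for 0, 3 and 1. The neural mean, like Eno2 and Hk1, was higher in every P81S array than in the other 6, and the pluripotency and cell cycle means, like Pdk1, were lower in every P81S array. The part of tissue makeup in those values was not tested.

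**Figure D5:**
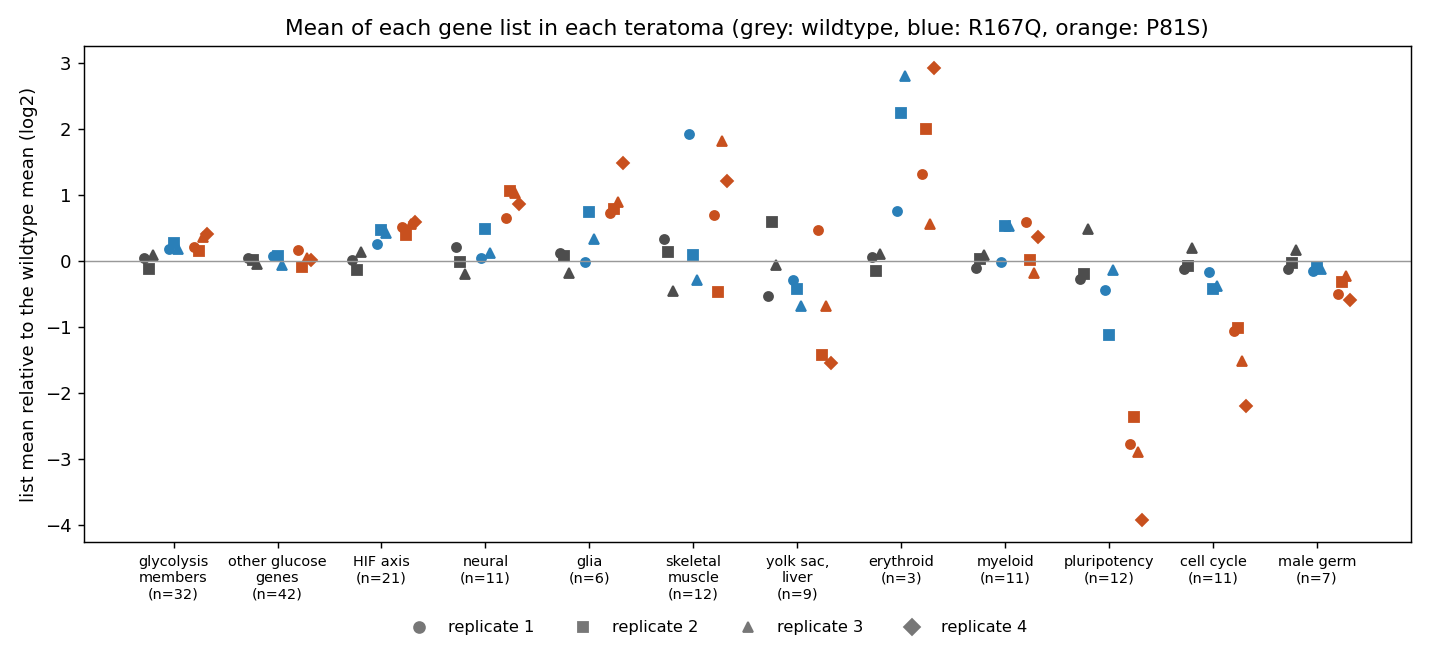
Mean log2 expression of each gene list in each teratoma, set to 0 at the wildtype mean, with the number of measured genes under each name. The means of the glycolysis members stay within 0.5 log2 of wildtype in all tumours, while the pluripotency mean falls by more than 2 log2 in each P81S tumour and the neural mean lies above wildtype in P81S.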

How the data were processed

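RNA of 10 teratomas was labelled with biotin and hybridised to 1-colour Affymetrix arrays, per the labels' protocols. The deposited values are log2 expression values, 1 per probe set and array. Per the submitters' processing notes the authors used RMA and Partek; versions, settings and the order of steps are not given in the sources used here.

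Gene names came from the array's platform annotation, checked by Entrez number against RefSeq (GRCm38.p6; 21185 of 21218 single-gene probe sets matched). Probe sets with several genes (1881) or no listed gene (12457) were not tested. Group means of all 10 arrays were fitted with limma 3.58.1 in R 4.3.3 (variance trend; 7 residual and 3.85 prior degrees of freedom), two-sided, with Benjamini-Hochberg adjustment over 18820 genes. Errors of differences are model standard errors. The script was tested on simulated data. Isoform differences were compared with exact permutation tests. The number of arrays limits the precision, and the signal over background is unknown.

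Values in every array are given for members called at 0.5 log2 or more and for isoforms of their step. Of the other lists, up to 4 called genes with the smallest p are named. Genes outside this rule (Slc2a1 in every array, Hif1a, Epas1, Snap25, Alb, Vhl) are given for their role, with their values known. Alternatives were other normalizations, gene filters, probe set rules, variance models, samples, array weights, blocks and single-array omissions. The members and lists were chosen with earlier results of these data known. Omission of P81S replicates 1 and 2, or 3 and 4, was added after seeing the data.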

Additional observations from a re-analysis of the deposited data

How the results depend on the processing

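Of the called member differences, 5 of 11 in P81S against wildtype and 4 of 7 in P81S against R167Q kept their direction and their call in all 26 alternatives, and no called difference changed sign. In P81S against wildtype, 17 members were called with array weights, 6 without P81S replicates 3 and 4 and 7 with a replicate block, against 11; single-array omissions gave 5 to 13. Against R167Q, 13 were called with array weights, 11 with chromosome shifts subtracted, 11 without P81S replicates 1 and 2 and 4 without replicates 3 and 4, against 7; single-array omissions gave 5 to 10. Of the other glucose genes, 8 were called in P81S against wildtype with the block (9 to 18 with an array omitted, against 15). Against R167Q, 3 were called with the block, 8 without P81S replicates 1 and 2 and 3 without replicates 3 and 4 (3 to 7 with an array omitted, against 5). The cause of these moves was not tested. The share of all genes called in each alternative was not counted, so the moves are not read as particular to these genes. R167Q against wildtype stayed at 0 calls in members and other glucose genes under all alternatives run. The isoform shifts gave 0 adjusted calls in every setting run, but the smallest exact p (0.0286 with 4 against 3 arrays, 0.1 with 3 against 3) made calls over 33 tests nearly impossible, so this says nothing about stability. Replicate numbers do not pair the arrays: deviations of same-numbered arrays correlated across genes at -0.28 to 0.21, and 2 of 9 pairs correlated best with their own number. Leaving out dim genes kept 30 of the 32 members (not Hk3 and Pgk2).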
